A study of Mus musculus with 5 samples.

Results

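The genes described here are 10 genes of lymphocytes, Ptprc, Cd3e, Cd3g, Cd8a, Cd7, Gzma, Gzmb, Ccl5, Nkg7 and Itgae, out of 22042 genes measured in sorted cells of the mouse small intestine and 27998 in a droplet library of the same tissue. The members were chosen by name, after their counts in sorted CCK+ cells had been seen to lie above those in sorted CCK- cells, so that difference is given as a description, and nothing is inferred from its calls. The questions asked were how the 10 genes varied between mice and feeding states, which other genes they moved with, and which single cells held them.

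The sorted cells came from 6 Cck-Cre; R26-LSL-tdTomato mice aged 6 to 8 weeks on a C57Bl/6J background, 3 of them fasted overnight and 3 fasted and then refed with the liquid diet Ensure. There was 1 library of tdTomato+ cells, called CCK+, and 1 of tdTomato- cells, called CCK-, for each of the letters A to F, which makes 4 groups of 3 libraries. Each library holds cells of a single mouse, and libraries with the same letter are taken here as from the same mouse, which the sources used here do not state. The Cre is driven by the Cck gene, which encodes the gut hormone cholecystokinin, and its mark is permanent, so that tdTomato reports present or past activity of the driver. The droplet library pooled tdTomato+ cells of 4 untreated Neurog3-Cre; R26-LSL-tdTomato mice aged 6 weeks, in which the descendants of endocrine progenitors are marked. Both sorts were made on tdTomato, and a gate on a leukocyte or epithelial surface protein is not given in the sources used here.

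The epithelium of the small intestine holds intraepithelial lymphocytes, most of them T cells that sit between epithelial cells. These cells carry the CD3 chains of the T cell receptor complex, often CD8alpha without CD8beta, the granzymes and the chemokine Ccl5, and the integrin encoded by Itgae, which binds E-cadherin on epithelial cells. Enteroendocrine cells (EECs), the source of cholecystokinin, are rare secretory cells of the same epithelium and are not known for these genes.

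The reference used here placed all 10 genes among protein-coding genes (GENCODE, GRCm38). Cd3e (ENSMUSG00000032093) lay at chr9:44998740-45009627 and Cd3g (ENSMUSG00000002033) at chr9:44969572-44980431, both on the minus strand. Promoter sequences from RefSeq (GRCm38.p6), from 250 bases before to 50 bases after an annotated start, were matched to 7 of the 10 genes, Ptprc with 2 starts. No promoter was matched to Cd7, Ccl5 or Itgae. The promoters of the cytotoxic effector genes Gzma (chr13:113100932-113101231, minus strand), Gzmb (chr14:56262285-56262584, minus strand) and Nkg7 (chr7:43436888-43437187, plus strand) are shown because each held TGTGGT, the core letters bound by RUNX factors, on either strand; capitals mark TGTGGT or its complement ACCACA and, in Nkg7, also CAGGAA, letters bound by ETS factors.
Gzma: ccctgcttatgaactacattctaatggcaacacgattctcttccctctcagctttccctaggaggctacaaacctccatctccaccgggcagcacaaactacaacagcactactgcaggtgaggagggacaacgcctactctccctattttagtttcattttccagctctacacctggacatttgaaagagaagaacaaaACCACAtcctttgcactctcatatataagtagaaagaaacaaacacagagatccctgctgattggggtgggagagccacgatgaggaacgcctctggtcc
Gzmb: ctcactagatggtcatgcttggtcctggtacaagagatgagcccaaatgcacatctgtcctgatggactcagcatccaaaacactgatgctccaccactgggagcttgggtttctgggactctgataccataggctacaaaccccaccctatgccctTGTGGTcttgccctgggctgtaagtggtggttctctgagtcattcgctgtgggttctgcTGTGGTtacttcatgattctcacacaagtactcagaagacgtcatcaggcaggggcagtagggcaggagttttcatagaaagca
Nkg7: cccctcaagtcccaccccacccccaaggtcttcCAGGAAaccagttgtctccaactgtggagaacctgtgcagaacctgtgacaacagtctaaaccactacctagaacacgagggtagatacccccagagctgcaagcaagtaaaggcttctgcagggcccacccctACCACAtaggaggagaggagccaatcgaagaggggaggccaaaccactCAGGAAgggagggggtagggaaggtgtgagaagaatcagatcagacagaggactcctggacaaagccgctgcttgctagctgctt
TGTGGT began at base -50 in Gzma, at -93 and -34 in Gzmb and at -83 in Nkg7, counted from the start site. It was in 3 of the 7 genes' promoters and in 16.8% of all 32851 promoters of this length. CAGGAA, searched on both strands, was in the promoters of Ptprc, Cd3e and Nkg7, 3 of 7 genes, and in 30.6% of all promoters. The 2 motifs do not overlap in letters, and a match is a description of sequence only.

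The 12 sorted libraries summed to between 7061155 and 11371114 normalized counts, which does not give their depth in reads. The sort was checked through Cck, whose normalized count was between 14840 and 32590 in the 6 CCK+ libraries and between 27.6 and 86.0 in the 6 CCK- libraries.

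All 10 lymphocyte genes were higher in every CCK+ library than in every CCK- library. Ptprc (ENSMUSG00000026395), which encodes the pan-leukocyte surface protein CD45, had a normalized count of 709, 1678 and 636 in the CCK+ libraries of fasted mice A, B and F and of 901, 1184 and 693 in those of refed mice C, D and E. In the CCK- libraries of the same mice it was at 72.4, 113 and 44.3 in the fasted state and at 107, 79.3 and 63.2 in the refed state. The groups did not overlap, and the CCK+ library of mouse B stood highest.

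The genes of the T cell receptor complex and its coreceptor had the same order. Cd3e, a signaling chain of the complex, was at 705, 1014 and 503 in the fasted and 901, 1035 and 755 in the refed CCK+ libraries, against 80.9, 157 and 64.3 in the fasted and 70.5 to 105.04 in the refed CCK- libraries. Cd3g, a further chain, was at 95.5, 137 and 112 in fasted and 141, 168 and 192 in refed CCK+ libraries and at 7.99 to 21.9 in the CCK- libraries. The 3 refed CCK+ libraries were all above the 3 fasted ones for Cd3g, though the difference did not pass the test given below. Cd8a (ENSMUSG00000053977), which encodes CD8alpha, was at 537, 912 and 461 in fasted and 624, 757 and 659 in refed CCK+ libraries, and at 34.5 to 123 in CCK- libraries. Cd7 (ENSMUSG00000025163), a surface protein of T cells and natural killer cells, was at 327, 634 and 273 in fasted and 386, 520 and 369 in refed CCK+ libraries, and at 27.2 to 70.4 in CCK- libraries. For both genes the highest library of each sorted population came from mouse B.

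The effector genes and the integrin had the same order, with no overlap between CCK+ and CCK- libraries. Gzma (ENSMUSG00000023132), a granule protease of cytotoxic cells, was at 2041, 3849 and 1541 in fasted and 2635, 2937 and 2400 in refed CCK+ libraries, and at 305, 430, 209, 244, 236 and 136 in the CCK- libraries of mice A, B, F, C, D and E. Gzmb (ENSMUSG00000015437), a second granzyme, was at 833, 1662 and 649.6 in fasted and 988, 1234 and 1282 in refed CCK+ libraries, and at 83.5 to 169 in CCK- libraries. Every CCK- value of both granzymes lay below every CCK+ value of the same gene. Ccl5 (ENSMUSG00000035042), a chemokine that cytotoxic T cells store and release, was at 696, 901 and 510.2 in fasted and 687, 839 and 637 in refed CCK+ libraries, and at 54.2, 125, 55.0, 57.6, 44.4 and 29.4 in CCK- libraries. Nkg7 (ENSMUSG00000004612), a granule membrane protein, was at 148, 231 and 182 in fasted and 168, 205 and 227 in refed CCK+ libraries, and at 4.79 to 23.1 in CCK- libraries. Itgae (ENSMUSG00000005947), which encodes the integrin alpha chain CD103 of resident lymphocytes, was the steadiest, at 390.4, 407 and 401 in fasted and 399, 431 and 375 in refed CCK+ libraries and at 43.3 to 66.9 in CCK- libraries.

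**Figure D1:**
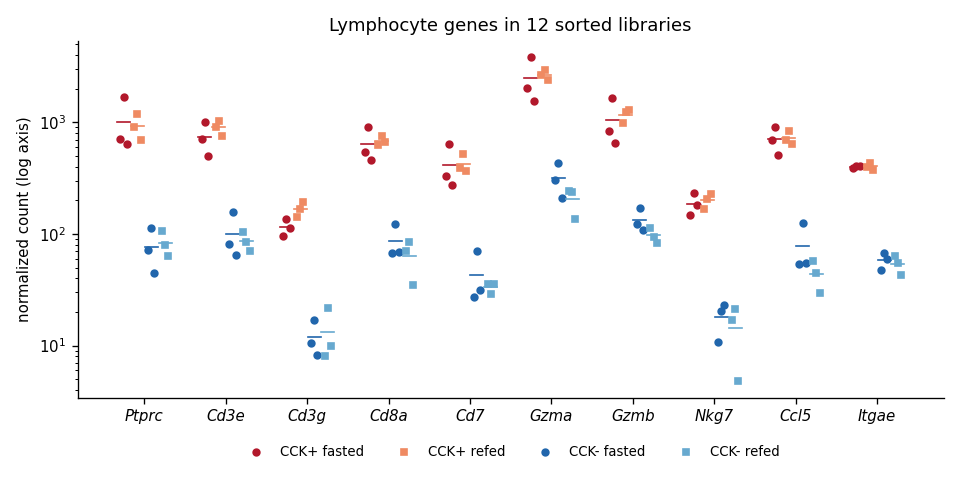
Normalized counts (log axis) of the 10 lymphocyte genes in the 12 sorted libraries, with 1 point a library, color and shape for the group, and a bar at the group mean. For each gene the 6 CCK+ points lie above the 6 CCK- points. Heights of different genes are not compared, since the counts are not per length.

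On the log2(normalized count + 1) scale, the CCK+ minus CCK- difference within mice was largest for Ccl5, 3.64 (SE 0.16), and Nkg7, 3.63 (SE 0.30), and smallest for Itgae, 2.84 (SE 0.14). It was 3.56 (SE 0.14) for Ptprc, 3.44 (SE 0.26) for Cd3g, 3.43 (SE 0.16) for Cd7, 3.33 (SE 0.12) for Gzma, 3.22 (SE 0.14) for Gzmb, 3.18 (SE 0.16) for Cd8a and 3.14 (SE 0.12) for Cd3e. The median of the 10 was 3.38, beside 0.09 over all genes. By limma with Benjamini-Hochberg adjustment over all 22042 genes, 10 of 10 passed an adjusted p of 0.05, where 34.8% of all genes passed in either direction and 19.8% passed as higher in CCK+ cells. In 9.74% of all genes the 6 CCK+ libraries lay above the 6 CCK- libraries, as they did for the 10. Since these values chose the members, nothing is read from those counts. In libraries made from many cells, more cells of a type and more RNA per cell cannot be told apart.

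The fold of CCK+ over CCK- within a mouse, as the median over the 10 genes, was 8.91 in mouse A, 8.52 in B and 7.87 in F, the fasted mice, and 9.41 in C, 12.3 in D and 16.6 in E, the refed mice. The highest single fold, 47.4 for Nkg7 in mouse E, rests on a CCK- value of 4.79. Summed over the 10 genes, the members took 0.0624 to 0.132% of the normalized counts of a CCK+ library and 0.00511 to 0.0118% of those of a CCK- library.

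The libraries of a group also differed from each other, and libraries with the same letter are given side by side. In mouse B the 10 genes deviated from their group mean by a median of 0.55 on the log2 scale in the CCK+ library and by 0.55 in the CCK- library. In mouse F the medians were -0.46 and -0.34, and in mouse A they were -0.20 and -0.23. In the refed mice the same 2 values were -0.09 and 0.27 for C, 0.15 and 0.05 for D, and -0.12 and -0.32 for E. Thus the fasted mice and the refed mice D and E deviated in the same direction in both libraries, and the refed mouse C did not.

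Across the 12 libraries, Pearson's r between pairs of the 10 genes was between 0.943 and 0.995 over the 45 pairs, a range that includes the gap between CCK+ and CCK- libraries. After subtraction of the 4 group means it was between 0.146 and 0.950, with a median of 0.721. These values describe 12 libraries that share 6 mice and a single normalization.

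The 10 other genes whose profile over the 12 libraries was most like the mean of the members, of 13507 genes with a mean of at least 10, were Il2rb, Chsy1, Flot2, Gimap4, Cldn6, Fcer1g, Il2rg, Sned1, Padi2 and Pcnx4, with Pearson's r from 0.985 to 0.993. Il2rb and Il2rg encode chains shared by the receptors for IL-2 and IL-15, Gimap4 a GTPase of lymphocytes and Fcer1g a signaling adaptor of immune receptors. Il2rb had a mean of 351 in CCK+ and 31.7 in CCK- libraries, a difference of 3.47 (SE 0.16) on the log2 scale. After subtraction of the group means, r with the members was 0.888 for Gimap4, 0.874 for Il2rb, 0.867 for Fcer1g and 0.681 for Il2rg. It was 0.836 for Padi2, 0.825 for Cldn6, 0.805 for Pcnx4, 0.794 for Chsy1, 0.661 for Sned1 and 0.599 for Flot2. Cldn6, a claudin of epithelial tight junctions, was in the same 10 with an r of 0.988, so likeness in these libraries was not limited to genes of leukocytes.

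Other genes of T cells, cytotoxic cells and leukocytes were higher in CCK+ libraries too. Of 72 further genes in 4 lists (T cell receptor and signaling, cytotoxic and natural killer, residence in the gut, and pan-leukocyte), 63 passed as higher and 0 as lower by limma, against 19.8% of all genes passing as higher. In 50 of the 72 the CCK+ libraries lay above the CCK- libraries without overlap, as they did in 9.74% of all genes, and the median difference of the 72 was 2.53. The lists were written with results of these libraries known, and the calls are not independent of the contrast that chose the 10 genes. The 9 that did not pass were Cd5, Cd28, Klrk1, Klrc1, Cd3d, Eomes, Ubash3a, Klre1 and Ncr1, of which 6 had a mean normalized count under 10. Low means were not limited to these: 4 genes of the T cell list and 10 of the cytotoxic list had a mean under 10. Cd2 and Ifng, among them, passed as higher.

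In the T cell list, 16 of 20 measured genes passed as higher, with a median difference of 2.41. Trgc1 and Trgc2, constant regions of the gamma chain of the gamma-delta T cell receptor, were at 214 to 667 and 157 to 450.4 in CCK+ libraries and at 25.4 to 128 and 36.8 to 82.6 in CCK- libraries, differences of 2.57 (SE 0.24) and 2.60 (SE 0.16). Among genes singled out after their values were seen, Trbc2, a constant region of the beta chain, was at 102 to 240.4 against 4.47 to 35.5, and Lck, the kinase of the CD4 and CD8 coreceptors, at 45.9 to 123 against 0.760 to 12.96. Gamma and beta chain genes were thus both higher in CCK+ libraries, Trbc2 by 3.28 (SE 0.30) on the log2 scale. Cd8b1, the CD8beta chain, was at 6.07 to 28.2 in CCK+ libraries, and Cd4, the coreceptor of helper cells, at 8.25 to 63.7.

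Cd3d and Thy1 did not share the size of the change. Cd3d, the delta chain of CD3, was at 91.5, 131, 84.4, 90.6, 193 and 74.9 in the CCK+ libraries of mice A, B, F, C, D and E and at 61.1, 59.95, 102, 79.0, 69.5 and 86.3 in their CCK- libraries. The groups overlapped, and the difference of 0.48 (SE 0.25) did not pass (limma adjusted p = 0.181), while the epsilon and gamma chains of the same complex differed by over 3 on the log2 scale. Thy1, a surface glycoprotein of T cells, was at 231 to 295 against 186 to 230.3, a difference of 0.33 (SE 0.11, limma adjusted p = 0.0381).

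In the cytotoxic list, 15 of 20 genes passed as higher, with a median of 2.35, and 10 of the 20 had a mean normalized count under 10. Fcer1g was at 83.9 to 266 in CCK+ libraries and at 10.0 to 27.9 in CCK- libraries, a difference of 3.28 (SE 0.20, limma adjusted p = 2.07e-06). Cd244a and Cd160, receptors of cytotoxic lymphocytes, differed by 2.53 (SE 0.25) and 2.62 (SE 0.33). All 10 genes of gut residence passed as higher, with a median of 2.60. Rgs1, a regulator of chemokine receptor signaling that resident T cells express, differed by 3.15 (SE 0.16), Ccr9, the receptor for the intestinal chemokine Ccl25, by 2.16 (SE 0.22), and Runx3, a transcription factor of CD8 and resident lymphocytes, by 3.27 (SE 0.69). Itga1, of the same list, differed by less, 0.98 (SE 0.13). All 22 pan-leukocyte genes passed as higher, with a median of 2.90, among them Ikzf3 at 2.99 (SE 0.18) and the actin bundler Lcp1 at 2.02 (SE 0.13).

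Genes of other leukocytes were higher in part. Of 10 genes of B and plasma cells 7 passed as higher, beside 19.8% of all genes, with a median of 1.93. The CCK+ libraries lay above without overlap for 1 of the 10, beside 9.74% of all genes, and 5 had a mean normalized count under 10. The summed normalized counts of the 10 were 284 to 1021 in CCK+ and 76.7 to 125 in CCK- libraries. Ighm, the heavy chain of IgM, was at 73.0, 71.0, 133, 141, 197 and 188 in the CCK+ libraries of mice A, B, F, C, D and E and at 3.76 to 13.7 in the CCK- libraries. Igkc and Igha, the kappa chain and the heavy chain of IgA, differed by 3.13 (SE 0.37) and 3.36 (SE 0.66), with groups that overlapped. Ms4a1, which encodes CD20 of mature B cells, had a median of 36.9 in CCK+ and of 49.4 in CCK- libraries and did not pass (limma adjusted p = 0.516). In the CCK+ libraries Igha was lowest in mouse E at 6.39 and highest in mouse A at 413, another order of mice than that of the 10 lymphocyte genes.

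Of 13 genes of myeloid and mast cells 7 passed as higher, beside 19.8% of all genes, with a median of 1.44. The CCK+ libraries lay above without overlap for 3 of the 13, beside 9.74% of all genes, and 5 had a mean normalized count under 10. The summed counts of the 13 were 327 to 1577 in CCK+ and 182 to 305 in CCK- libraries. Lyz2, a lysozyme of macrophages, was at 72.5, 99.6, 928, 1209, 387 and 620.2 in the CCK+ libraries and at 4.86 to 58.4 in the CCK- libraries. It was lowest in mice A and B, whereas the CCK+ library of mouse B had the highest median deviation of the 10 lymphocyte genes. Mcpt1, a protease of mucosal mast cells, was at 10.5 to 151 in CCK+ libraries and listed at 0 in 4 of the 6 CCK- libraries. Itgam, which encodes CD11b, was at 70.7 to 123 against 115 to 163 and did not pass (limma adjusted p = 0.0609). The part of these other leukocyte types in the levels of the 10 genes was not tested.

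Genes that epithelial cells use to hold or signal to intraepithelial lymphocytes did not follow the lymphocyte genes. Of 12, 8 passed as lower in CCK+ libraries and 0 as higher, with a median of -0.70. Of all 22042 genes, 3301 passed as lower and 4370 as higher. Ccl25, the ligand of Ccr9, fell by 0.90 (SE 0.10), Btnl1, a butyrophilin-like protein that selects intraepithelial gamma-delta T cells, by 1.24 (SE 0.12), and H2-T3, which encodes the TL antigen bound by CD8alpha homodimers, by 1.11 (SE 0.13). Cdh1, which encodes E-cadherin, differed by 0.17 (SE 0.09) and did not pass (limma adjusted p = 0.194). Enterocyte markers moved with them: 7 of 8 passed as lower, with summed counts of 132500 to 336100 in CCK+ and 362500 to 522300 in CCK- libraries. All 14 EEC markers passed as higher, with a median of 6.58 and summed counts of 103600 to 332900 against 1530 to 3067.

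The remaining lists were called in smaller and larger shares, beside 34.8% of all genes in either direction. Epithelial markers had 2 of 6 higher and 1 lower, and Epcam was at 5223 to 9159 in CCK+ and 5648 to 9872 in CCK- libraries. Of 7 goblet markers 1 was higher and 2 lower, of 5 Paneth markers 0 were called, of 10 tuft markers 1 was lower, of 5 crypt and cycling markers 4 were higher, and of 10 measured markers of stroma, vessels and nerve 1 was higher.

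**Figure D2:**
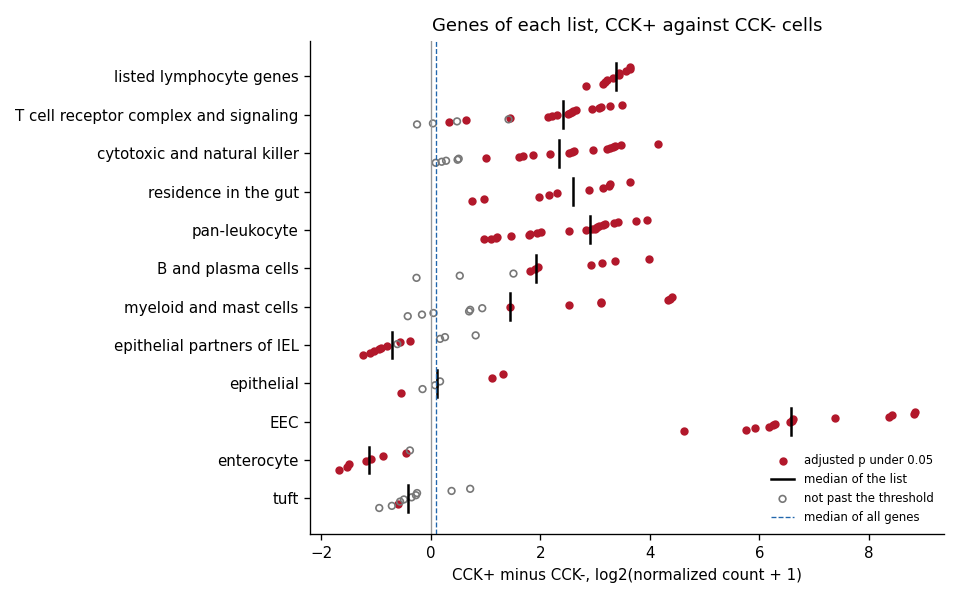
CCK+ minus CCK- difference on the log2(normalized count + 1) scale for each gene of 12 lists, filled where the limma adjusted p was under 0.05, with the list median as a black bar and the median of all genes, 0.09, as a dashed line. The medians of the leukocyte lists lie to the right of 0 and are smaller than that of the EEC list, 6.58. A few leukocyte genes, such as Ubash3a, Ms4a1 and Itgam, lie to the left of 0. The epithelial partners of intraepithelial lymphocytes (IEL) lie mostly to the left.

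Refeeding was compared with fasting within each sorted population, a contrast that did not choose the members. None of the 10 genes passed in CCK+ cells, where 2.55% of all genes did (limma, Benjamini-Hochberg over all genes; 0 of 10 at an unadjusted p under 0.05, beside 16.9% of all genes). The refed minus fasted difference was between -0.01 for Ptprc and 0.54 (SE 0.39) for Cd3g, with a smallest adjusted p of 0.529. Gzma, at 2477 ± 1214 (SD, n = 3) in fasted and 2657 ± 269 (SD, n = 3) in refed CCK+ libraries, differed by 0.21 (SE 0.33). Ptprc was at 1007 ± 582 (SD, n = 3) and 926 ± 246 (SD, n = 3). The standard errors were 0.20 to 0.45 on the log2 scale. A change had to be well above its standard error to pass with 3 mice a state. Changes of the size of the standard errors, and somewhat larger ones, could thus be missed.

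In CCK- cells none of the 10 passed either, where 1.23% of all genes did (limma; 1 of 10 at an unadjusted p under 0.05, beside 12% of all genes). The lowest difference was that of Ccl5, -0.75 (SE 0.33, unadjusted p = 0.0368, adjusted p = 0.372). Ccl5 was at 77.9 ± 40.4 (SD, n = 3) in fasted and 43.8 ± 14.1 (SD, n = 3) in refed CCK- libraries, and the high fasted value of 125 was that of mouse B. Without that mouse the 10 differences ran from -0.36 to 0.51, beside -0.75 to 0.19 with it.

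The difference between refed and fasted mice of the CCK+ minus CCK- gap was above 0 in 9 of the 10 genes, with a median of 0.51. By limma with the mouse as a block, 0 of 10 passed, and 0.00454% of all genes, a single gene, did. At an unadjusted p under 0.05 there were 3 of 10, Gzma, Gzmb and Ccl5, beside 7.78% of all genes. The gap was larger in refed mice by 0.81 (SE 0.23) for Gzma, 0.71 (SE 0.28) for Gzmb and 0.82 (SE 0.32) for Ccl5, each with an adjusted p of 0.564 or above.

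**Figure D3:**
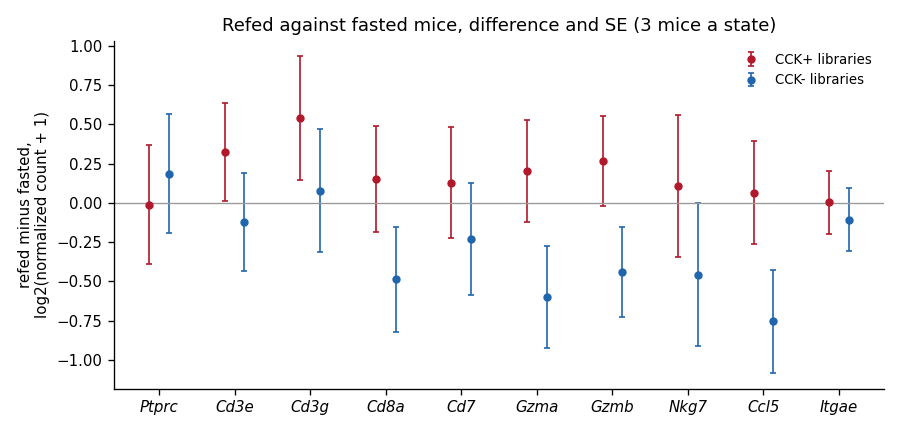
Refed minus fasted difference on the log2(normalized count + 1) scale, with its standard error from limma, for the 10 genes in CCK+ and in CCK- libraries, 3 mice a state. The CCK+ points run from -0.01 to 0.54 and the CCK- points from -0.75 to 0.19, and none passed the adjusted threshold.

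The other leukocyte lists also gave no call for feeding state by limma. Of the T cell, cytotoxic, residence and pan-leukocyte lists, 0 genes passed in CCK+ cells and 0 in CCK- cells, and at an unadjusted p under 0.05 the CCK+ counts were 0 of 20, 1 of 20, 2 of 10 and 0 of 22, beside 16.9% of all genes. The 2 genes of residence were Rgs1, at 0.72, and Ccr9, at 0.79, with adjusted p of 0.263 and 0.246. Among the 12 epithelial partners, Btnl6 and Btnl4, relatives of Btnl1, fell by 0.77 each in refed CCK+ cells (limma adjusted p = 0.0369 and 0.0438). Of all genes, 2.55% were called there, and a limma fit of the CCK+ libraries alone called 0 genes. In CCK- cells 0 of the 12 were called. At an unadjusted p under 0.05 by limma there were 4, Btnl4 and Btnl6 among them.

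The droplet library was used to ask which single cells held the 10 genes. Of its barcodes, 9451 had more than 1000 genes and under 10% of unique molecular identifiers (UMIs) on mitochondrial genes and were taken as cells, with a median of 5984 UMIs. A cell with at least 500 UMIs of Cck per 10000 was called Cck-high, which held for 1246 cells and left 8205 others. The limit lay in a thin stretch of the distribution, with 40 cells between 400 and 500 and 33 between 500 and 600. There is 1 library, so values are given with exact 95% intervals that cover counting error only, and without tests. Doublets were not called.

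Over all Cck-high cells the 10 genes summed to 1.06 UMIs per 10000 (Poisson interval 0.989 to 1.13), and over all other cells to 2.12 (2.08 to 2.16). These sums depend on the smallest number of genes a cell must have: with more than 500 genes they were 1.04 and 4.32, and with more than 1500 genes 1.14 and 1.35. Both sums came largely from a few cells. Of the 9451 cells 7423 held none of the 10 genes, 1760 held 1, 190 held 2 and 17 held 3, while 16 held all 10. The 78 cells with UMIs of at least 3 of the genes (0.825%, exact binomial interval 0.653 to 1.03) held 10735 of the 13175 UMIs of the 10 genes, 81.5%. They held 90.1% of the Gzmb UMIs, 86.4% of the Gzma, 86.0% of the Cd3g, 85.0% of the Cd7 and 76.8% of the Cd3e UMIs.

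Cck-high cells were 7 of these 78. That was 0.562% of Cck-high cells (exact binomial interval 0.226 to 1.15), and the other 71 were 0.865% of the other cells (0.676 to 1.09), so the intervals overlapped. Thinned to 2000 UMIs a cell, which left out 58 shallower cells, none of them Cck-high, the shares were 0.401% (0.130 to 0.934) and 0.638% (0.477 to 0.836).

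**Figure D4:**
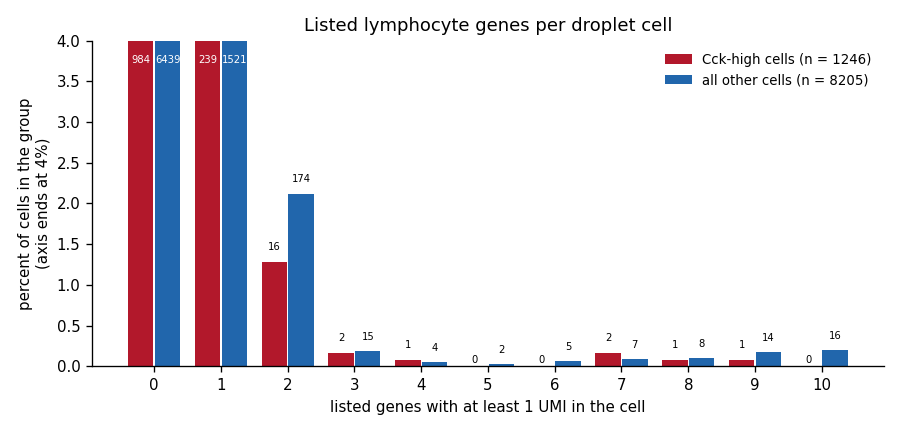
Percent of Cck-high cells and of all other cells by the number of the 10 genes with at least 1 UMI, with the number of cells printed on each bar; the axis ends at 4%, so the bars at 0 and 1 are cut. In both groups most cells hold 0 or 1 of the genes, and a separate small set, larger in the other cells, holds 7 to 10.

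The 7 Cck-high cells carried both kinds of RNA. Of them, 4 held 7 to 9 of the 10 genes, with 145, 119, 224 and 71 UMIs of those genes beside 1117, 1192, 1074 and 867 UMIs of Cck. The other 3 held 3 or 4 of the genes with 5, 12 and 8 UMIs. The 7 had between 6312 and 8939 UMIs in all, with a median of 7676, and the 1239 Cck-high cells below 3 genes had a median of 6279. Cck was at 928 to 1549 per 10000 in the 7 cells and at a median of 1508 in the 1239. Whether a droplet held more than 1 cell was not tested.

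The other 71 cells were low in Cck, at a median of 10.9 per 10000, beside a median of 11.5 over all cells that were not Cck-high. Summed over the 71, Cck was at 21.1 per 10000, and in free RNA, the sum of barcodes with 1 to 100 UMIs, it was at 111. Markers of goblet and Paneth cells were also counted in the 78 cells, at 1730 and 663 per 10000, beside 2230 and 438 in free RNA. Epithelial markers were at 79.5 per 10000 in them and at 94.2 in free RNA, and the part of free RNA in those values was not tested.

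The share of barcodes with at least 3 of the genes differed with the number of genes in a barcode, without a steady trend. Among barcodes with more than 500 and up to 1000 genes, 125 of 7119 held at least 3 of the genes (1.76%, exact binomial interval 1.46 to 2.09), and 0 of the 125 were Cck-high. Their median was 8 of the 10 genes at 1498 UMIs, and the genes summed to 992 per 10000, beside 206 in the 78 cells. EEC markers were at 84.1 per 10000 and epithelial markers at 33.2 in these 125 barcodes, below the 478 and 94.2 of free RNA. The share of barcodes with at least 3 genes was 0.572% (36 of 6299, 0.401 to 0.790) for more than 200 and up to 500 genes, 0.804% (0.554 to 1.13) for more than 1000 and up to 1500, 0.740% (0.506 to 1.04) for more than 1500 and up to 2500 and 1.28% (13 of 1017, 0.682 to 2.18) for more than 2500. All of these barcodes had under 10% mitochondrial UMIs.

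Because the 78 cells were picked through the 10 genes, each gene was also counted in cells with at least 3 of the other 9. Cd3e was then in 44 of 76 cells, 57.9% (exact binomial interval 46.0 to 69.1), and in 2 of 1239 Cck-high cells with fewer, 0.161% (0.0196 to 0.582). Cd8a was in 46 of 76 cells against 4 of 1239, and Gzmb in 50 of 75 against 8 of 1240. Ccl5 was in 61 of 61 cells, and Itgae, the least detected of the 10, in 27 of 78 against 2 of 1239. The median depth was 4522 UMIs for the 76 cells of Cd3e and 6279 for the 1239.

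Some genes that had no part in picking the 78 cells, named here from longer lists, were concentrated in them as well. Cd3d was in 49 of the 78 cells (62.8%, exact binomial interval 51.1 to 73.5), in 1 of the 1239 Cck-high cells with under 3 of the genes and in 25 of 7804 remaining cells. Its level was 2.88 UMIs per 10000 in the 78 cells (Poisson interval 2.44 to 3.38) and 0.00451 (0.00292 to 0.00666) in the remaining cells, although its counts in the sorted libraries overlapped. Rgs1 was in 55 of the 78 cells, Fcer1g in 46, and Klrd1 (CD94, a receptor of cytotoxic lymphocytes) and Lck in 33 each. In the Cck-high cells with under 3 genes the same 4 were in 4, 12, 2 and 5 of 1239.

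Summed by list, the 17 T cell genes in this matrix came to 6.37 UMIs per 10000 in the 78 cells (5.71 to 7.10) and to 0.0355 in the Cck-high cells with under 3 of the genes. The cytotoxic list came to 13.2 against 0.0355, and the residence list to 8.43 against 0.127. The pan-leukocyte list came to 17.8 (16.6 to 19.0) against 0.291, but was not particular to the 78 cells. It was at 17.2 (16.6 to 17.7) in the tuft-marked cells, defined below, that were not Cck-high and held under 3 of the genes. Cd4 was in 2 of the 78 cells and Cd8b1 in 1, with 3 UMIs in all (0.0576 per 10000), beside 136 UMIs of Cd8a. Ncr1 and Klrb1c, receptors of natural killer cells, were in 0 of the 78, a count that leaves room for up to 3.85% of such cells having a UMI.

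Genes of B and myeloid cells were counted in few of these cells. The 7 B and plasma cell genes in the matrix had 22 UMIs in 7 of the 78 cells, 0.422 per 10000 (0.265 to 0.639), above the 0.0149 (0.00308 to 0.0437) of free RNA and the 0.00856 (0.00344 to 0.0176) of Cck-high cells with under 3 of the genes. The 13 myeloid and mast cell genes had 8 UMIs in 6 of the 78 cells, 0.154 per 10000 (0.0663 to 0.303) beside 0.0996 in free RNA. In the remaining cells without tuft markers and under 3 of the genes they were at much the same level, 0.151 (0.141 to 0.161), with 836 UMIs in 546 cells. Mcpt1, Mcpt2, Cpa3, C1qa and Csf1r had 0 UMIs in the 78 cells. Ighm, Igha and Igkc, which were higher in the sorted CCK+ libraries, have no entry among the genes of this matrix, so they could not be compared.

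The sum of the 10 genes was also taken without the 78 cells. That cut used the same 10 genes, so low sums in both kinds of cells were partly fixed by it, and nothing is concluded from their likeness. The sum was 0.351 UMIs per 10000 (Poisson interval 0.311 to 0.394) in 1239 Cck-high cells and 0.374 (0.359 to 0.390) in the other cells, with intervals that overlapped. The other cells included cells with tuft markers, at 1.59 (1.42 to 1.76), and without those the sum was 0.327 (0.313 to 0.343). It was 3.04 (2.81 to 3.29) in free RNA. Ccl5 was in 10.4% of these Cck-high cells (exact binomial interval 8.77 to 12.2) and in 10.8% of the remaining cells without tuft markers (10.1 to 11.5), and Gzma in 6.62% and 6.11%. Their median depths were 6279 and 5931 UMIs. The shares of both genes lay close together in cells of both kinds, and the part of free RNA in them was not tested.

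In the shares of Ccl5 and Gzma, the makeup of these scattered UMIs was close to that of free RNA. Ccl5 was 49.5% (exact binomial interval 43.6 to 55.4) of the 287 UMIs in Cck-high cells, 53.3% (51.0 to 55.6) of the 1814 in the remaining cells and 53.2% (49.1 to 57.2) of the 611 in free RNA. Gzma was 28.9% (23.7 to 34.5), 27.6% (25.6 to 29.7) and 27.3% (23.8 to 31.1). Cd3e, with 2 UMIs in the Cck-high cells, and Itgae, with 2, are under the 3 counts that a value of 0 allows.

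**Figure D5:**
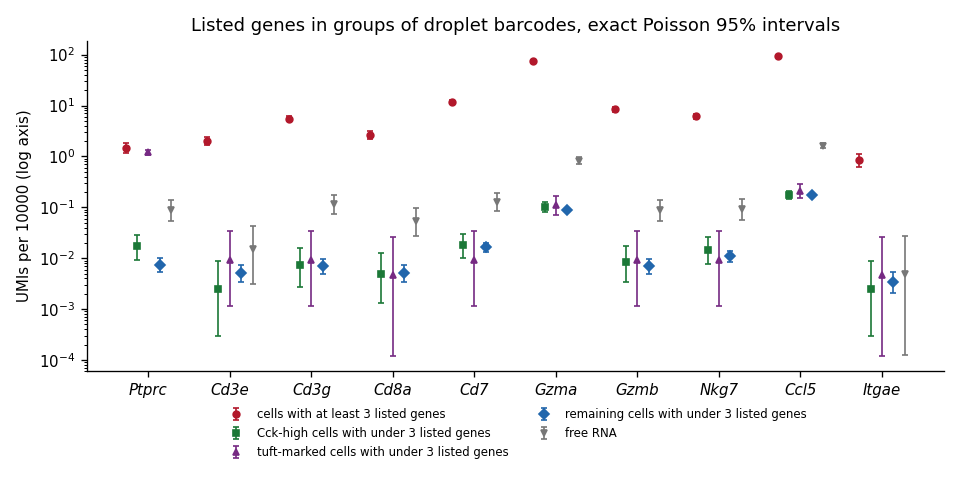
UMIs per 10000 (log axis) of the 10 genes in 5 groups of droplet barcodes, with exact Poisson 95% intervals that cover counting error only. The intervals of Cck-high cells and remaining cells, both below 3 of the genes, overlap for each gene. They do so narrowly for Ptprc, at 0.0171 (0.00936 to 0.0287) and 0.00740 (0.00531 to 0.0100). The 78 cells picked by at least 3 of the genes lie far above, and Ptprc alone is as high in tuft-marked cells.

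Ptprc was the exception among the 10. A subset of tuft cells, chemosensory cells of the epithelium, is known to express it. Cells with UMIs of at least 5 of 10 tuft genes, 350 in all, were called tuft-marked (16 cells held 4 of the genes and 36 held 5). In the 330 of these that were not Cck-high and held under 3 of the 10 lymphocyte genes, Ptprc was at 1.21 UMIs per 10000 (Poisson interval 1.06 to 1.36) and in 44.2% of cells (exact binomial interval 38.8 to 49.8). In the remaining cells it was at 0.00740 (0.00531 to 0.0100) and in 0.500%. Of its 390 UMIs in cells, 267, or 68.5%, lay in tuft-marked cells below 3 genes and 19.7% in the 78 cells.

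For the other 9 genes the intervals of tuft-marked and remaining cells overlapped. Cd3e was at 0.00935 UMIs per 10000 there (0.00113 to 0.0338) and Gzma at 0.112 (0.0719 to 0.167), beside 0.00505 and 0.0904 in the remaining cells. Of the pan-leukocyte genes, Fyb was at 9.24, Rac2 at 5.65 and Vav1 at 2.16 per 10000 in tuft-marked cells and at 0.0336, 0.0336 and 0.0206 in the remaining cells. These 3 were chosen after their values were seen. Fyb and Rac2 were also the 2 of the 4 most abundant pan-leukocyte genes whose sorted CCK+ and CCK- libraries overlapped, with differences of 0.97 (SE 0.18) and 1.10 (SE 0.30). In the Cck-high cells with under 3 of the genes, 9 of the 14 UMIs of Ptprc were in 17 cells that were also tuft-marked. The tuft markers as a list were not higher in the sorted CCK+ libraries, with summed counts of 264 to 1025 against 425 to 1358.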

How the data were processed

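In 12 libraries, lettered A to F in each sorted population, tdTomato+ and tdTomato- cells were sequenced after a sort. The authors trimmed reads with Trim Galore 0.6.7 and quantified them with Salmon 1.6.0 on the GRCm39 transcriptome of Ensembl. The deposited signal values are gene counts normalized with DESeq2, are not whole numbers, and were used as given, with all 22042 genes. They were analysed as log2(normalized count + 1) with limma 3.58.1 in R 4.3.3, with a mean-variance trend and Benjamini-Hochberg adjustment over all genes, at an adjusted p of 0.05. CCK+ against CCK- cells and its difference between feeding states had the letter as a block (4 residual degrees of freedom). Refed against fasted mice used 4 group means (8 residual degrees of freedom). All bulk records carry a title naming CCK+ cells, and the cell-type labels and row names were used instead. Libraries with the same letter were taken as from the same mouse. The fit was tested on simulated data.

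For the droplet library the authors ran Cell Ranger 2.0.1 on mm10, and the deposited counts are UMIs for every barcode. Levels are UMIs per 10000. Barcodes were filtered at more than 1000 genes and under 10% mitochondrial UMIs. Genes were matched by Ensembl identifier, with Python 3.11.15, numpy 2.4.6, scipy 1.17.1 and pandas 2.3.3.

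The 10 members and all gene lists were chosen with earlier results of these data known. Named are the 10 members, the 10 genes most like the members, and some genes singled out afterwards. Of several other lists, some or all of the 4 genes of highest mean count are named.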

Additional observations from a re-analysis of the deposited data

How the results depend on the processing

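None of the 10 lymphocyte genes passed for feeding state, or for its difference between sorted populations, under any alternative run (pseudocounts, filter on low values, scaling, block, each mouse left out). Their calls in CCK+ against CCK- cells follow from how they were chosen and say nothing of stability. The number of genes called among all genes moved more. Without the replicate block for the mouse, 7431 genes were called in CCK+ against CCK- cells and 7671 with it, and the block changed no call of the 10 genes. In fasted mice alone 4266 were called. The shared letter alone does not establish the pairing: deviations from group means correlated over genes at 0.0463 to 0.065 for same-letter libraries, every library correlating best with its own letter, and at -0.0455 to -0.00973 for other pairs. Scaled to library sums, 83.2% of the calls in CCK+ against CCK- cells were higher, beside 57.0%, with the median of all genes at 0.346 (0.09 in the main scaling), and in refed against fasted CCK+ cells 77.4%, beside 51.5%; the cause was not tested. Refed against fasted called 0 genes in a fit of the CCK+ libraries alone (3190 at an unadjusted p under 0.05), and 63 in one of the CCK- libraries alone, which have fewer samples. The difference between feeding states called 0 genes at a pseudocount of 10 (1778 at an unadjusted p under 0.05).

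With each mouse left out in turn, calls were 5313 to 7065 for CCK+ against CCK-, 103 to 876 for refed against fasted in CCK+ cells (561 with all mice, lowest without D, 193 without B, 183 without E, 351 without F and highest without A), 79 to 144 in CCK- cells (272 with all; lower without any single mouse) and 0 to 1 for the difference (0 without B, C, D, E or F). Directions of the members for feeding state were not stable: without F, 4 of the 10 were above 0 in CCK+ cells, beside 9 with all mice.

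In the droplet library the share of cells with at least 3 of the genes was 1.23% and 1.05% at minimums of 500 and 200 genes, 2.84% and 0.645% for at least 2 and at least 4 genes, and 0.607% at 2000 UMIs a cell. The sum of the 10 genes in other cells was 4.32, 4.31 and 1.35 UMIs per 10000 at minimums of 500, 200 and 1500 genes, 2.30 under 25% mitochondrial UMIs and 2.07 with Cck-high set at 1000. In Cck-high cells it was 1.14 at 1500 genes, 1.26 with the limit at 100 and 1.24 at 1000. Without the cells holding at least 3 of the genes it was 0.351 and 0.374. With 3 mice a state and 1 droplet library, differences between mice limit the first comparison and cannot be seen in the second.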
